A study of Acromyrmex echinatior with 18 samples.

Results

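Aech_15068, Aech_03292 and Aech_07791 are genes of the leaf-cutting ant Acromyrmex echinatior that the deposited annotation names only as putative uncharacterized proteins, with no fly ortholog given. They were chosen by their number of RNA editing sites, which lie in dense groups. Aech_15068 held 74 sites, Aech_03292 held 46 and Aech_07791 held 46, which is 166 of the 17229 sites in the deposited table and 166 of the 6999 sites in annotated genes. Of the 1433 genes with a site, Aech_15068 ranked second by number of sites and the other 2 shared rank 8. Because these site numbers chose the genes, they are a description and carry no test. The uncharacterized genes next below them were Aech_14144 with 40 sites, of which 2 lay in the 3' UTR, Aech_13339 with 32 sites, all in the 3' UTR, and Aech_12892 with 28 sites, of which 0 did.

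In A-to-I editing, an ADAR enzyme deaminates adenosine in double-stranded RNA to inosine, which is copied as guanosine and is therefore read as G in sequencing. Long or nearly perfect duplexes, such as those formed when a transcript holds inverted copies of a repeat, are typically edited at many adenosines and to different degrees at each. Such dense editing is known mainly from introns and 3' UTRs, which lie outside the coding sequence and where transposable elements are common. The functions of the proteins of these 3 genes are not known from the annotation, so their sites are described by place, level and caste.

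Ants of 3 female castes, the gynes (future queens), the large workers and the small workers, came from colonies Ae322, Ae356 and Ae363, written here as A, B and C. Each of the 9 RNA libraries came from pooled heads of 1 caste and 1 colony, with 50 heads for gynes, 50 for large workers and 200 for small workers. The labels give no treatment, genotype or age. A DNA library from the pooled bodies of the same ants stood beside each RNA library. RNA reads over all sites of the table ranged from 479998 to 1037408 per library, and the 3 small worker libraries were the deepest. The editing level is the percentage of RNA reads at a site that carry the edited base. Because heads were pooled, a level is an average over the cell types of the head and over many ants, and the spread between replicates is that between pools of different colonies.

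All 166 sites were A-to-G changes on the strand of their gene. Their DNA reads, 19660 for Aech_15068, 12548 for Aech_03292 and 11439 for Aech_07791, held 0 reads with the edited base, as was the case for every site of the table. Of the 166 sites, 156 lay in an annotated 3' UTR and 10 in an intron. Over the 9 RNA libraries together, 55 sites were edited in under 10% of reads, 52 in 10% to 25%, 30 in 25% to 50% and 29 in 50% or more.

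The sites of Aech_15068 lay on the plus strand of scaffold 571 of assembly Aech_2.0, from position 37123 to 47034, so that 74 sites were spread over 9912 bases. All were annotated as 3' UTR, and 3 of them also lay in a transposable element. The median of the 73 gaps between neighbouring sites was 9 bases and the largest gap was 3205 bases. Splitting the sites wherever a gap exceeded 90 bases, the length of a read, gave 9 clusters. The largest held 23 sites within 322 bases, at 41885 to 42206, and 14 sites lay at 40410 to 40603, 12 at 41105 to 41181 and 9 at 41428 to 41504. The last cluster was a pair at 47033 and 47034, far downstream of the others.

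The listed sites of Aech_15068 had the highest levels and the thinnest cover of the 3 genes. The median was 12 reads per site and library, against 36 in Aech_03292 and 59 in Aech_07791. Whether sites of low level were missed at that depth was not tested, so these levels are not compared at like depth. In Aech_15068 the level over the 9 libraries had a median of 27.9% per site and ran from 5.63% to 95.2%. There 23 of the 74 sites were edited in 50% of reads or more. In Aech_03292 that was so for 6 of 46 sites and in Aech_07791 for 0 of 46. The site at 41106, the highest among those deep enough to test, was edited at 71.9%, 94.4% and 94.4% in gynes of colonies A, B and C, at 86%, 76.5% and 100% in large workers and at 82.1%, 97% and 86.7% in small workers. The caste means of 86.9%, 87.5% and 88.6% lay within the spread of each caste. The first site, 37123, was edited in 30 of 54 reads and the last, 47034, in 40 of 42 reads over all libraries together. At 8 of the 74 sites a library had 0 reads, and 8 sites reached 10 reads in all 9 libraries. With 10 reads a level moves in steps of 10 percentage points, so levels of single libraries at the other 66 sites are coarse.

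The sites of Aech_03292 lay on the minus strand of scaffold 140, from 246801 down to 237414 in the direction of the transcript. They spanned 9388 bases, nearly as much as those of Aech_15068, and none lay in a transposable element. The first 10 sites were annotated as intron and the other 36 as 3' UTR. The median gap was 13 bases and the largest 2808, and the 90-base split gave 9 clusters, of which 3 were single sites. The largest cluster held 17 sites within 262 bases, at 242002 to 241741, and 9 more sites lay at 241473 to 241381.

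Levels along Aech_03292 were low at most sites and high at a few. The median was 11.0%, the lowest 1.67% and the highest 68.2%. Within the 17-site cluster, site 241829 was edited at 68.2% over all libraries, 241744 at 62.8% and 241892 at 36.3%, while 241897, which is 5 bases from 241892, was at 1.67%. At 241829 gynes had 68%, 81.2% and 64.7% in colonies A, B and C, large workers 60.4%, 60% and 68.8%, and small workers 78%, 67.6% and 67.1%. At 241892 gynes had 38.8%, 37.5% and 39.4%, large workers 32.7%, 39% and 42.3%, and small workers 32%, 34.1% and 41.4%. The castes overlapped at both sites. The deepest site, the intronic 243557, had 114 to 904 reads per library and was edited at 3.38%, and 243555 beside it at 9.89%. The first site of the transcript, 246801, was edited at 3% and the last, 237414, at 9.02%. Over the 4 tested intronic sites gynes averaged 5.39% ± 0.989, large workers 4.51% ± 0.255 and small workers 4.21% ± 0.276, against 13.4% ± 1.45, 14% ± 1.52 and 14.1% ± 0.473 over the 27 tested sites of the 3' UTR (SD, n = 3 libraries each). The tested sites leave out the intronic cluster of 6 sites at 244987 to 244911, where 15.5% of reads over all libraries were edited. Over all 10 intronic sites the median level was 9.52%, against 12.4% over all 36 sites of the 3' UTR. The 10 intronic sites held 43.6% of the gene's reads although the RNA was polyadenylated. Most of these 15000 reads lay at 243557, 243555 and 246801, with 4968, 4794 and 2867 reads. The median over sites of the median reads per library was 31.5 in the intron and 44 in the 3' UTR. Whether the annotation of these positions as intron is right was not tested.

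The sites of Aech_07791 were packed most tightly. All 46 lay within 748 bases of the 3' UTR on the minus strand of scaffold 531, from 394176 down to 393429, and 34 of them (73.9%) also lay in a transposable element. The median gap was 5 bases and the largest 158. There were 3 clusters, the first of 17 sites at 394176 to 393997, the second of 24 sites at 393865 to 393601 and the last of 5 sites within 15 bases, at 393443 to 393429. The transposable element covered all of the first cluster and part of the second, and the last cluster lay outside it. Among the 188 genes with 10 or more sites, the median gap had a median of 9 bases. Aech_07791 ranked 29 from the shortest gap, Aech_15068 ranked 89 and Aech_03292 ranked 128, so gaps of these sizes were common among genes with that many sites.

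Levels in Aech_07791 had a median of 10.5% and ran from 1.88% to 44.1%. The highest site, 393795, was edited at 26.6%, 29.4% and 47.6% in gynes of colonies A, B and C, at 45.6%, 42.9% and 37.2% in large workers and at 51.6%, 48.4% and 50% in small workers. All 3 small worker libraries lay above the 6 others at that site, but the difference from gynes did not pass the test across all sites (adjusted p = 0.119 in the quasi-binomial model described with the site tests). Site 393777 was edited at 40.6% over all libraries. Site 393865, with the most reads in the gene, was at 5.21% and the first site of the transcript, 394176, at 2.19%.

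**Figure D1:**
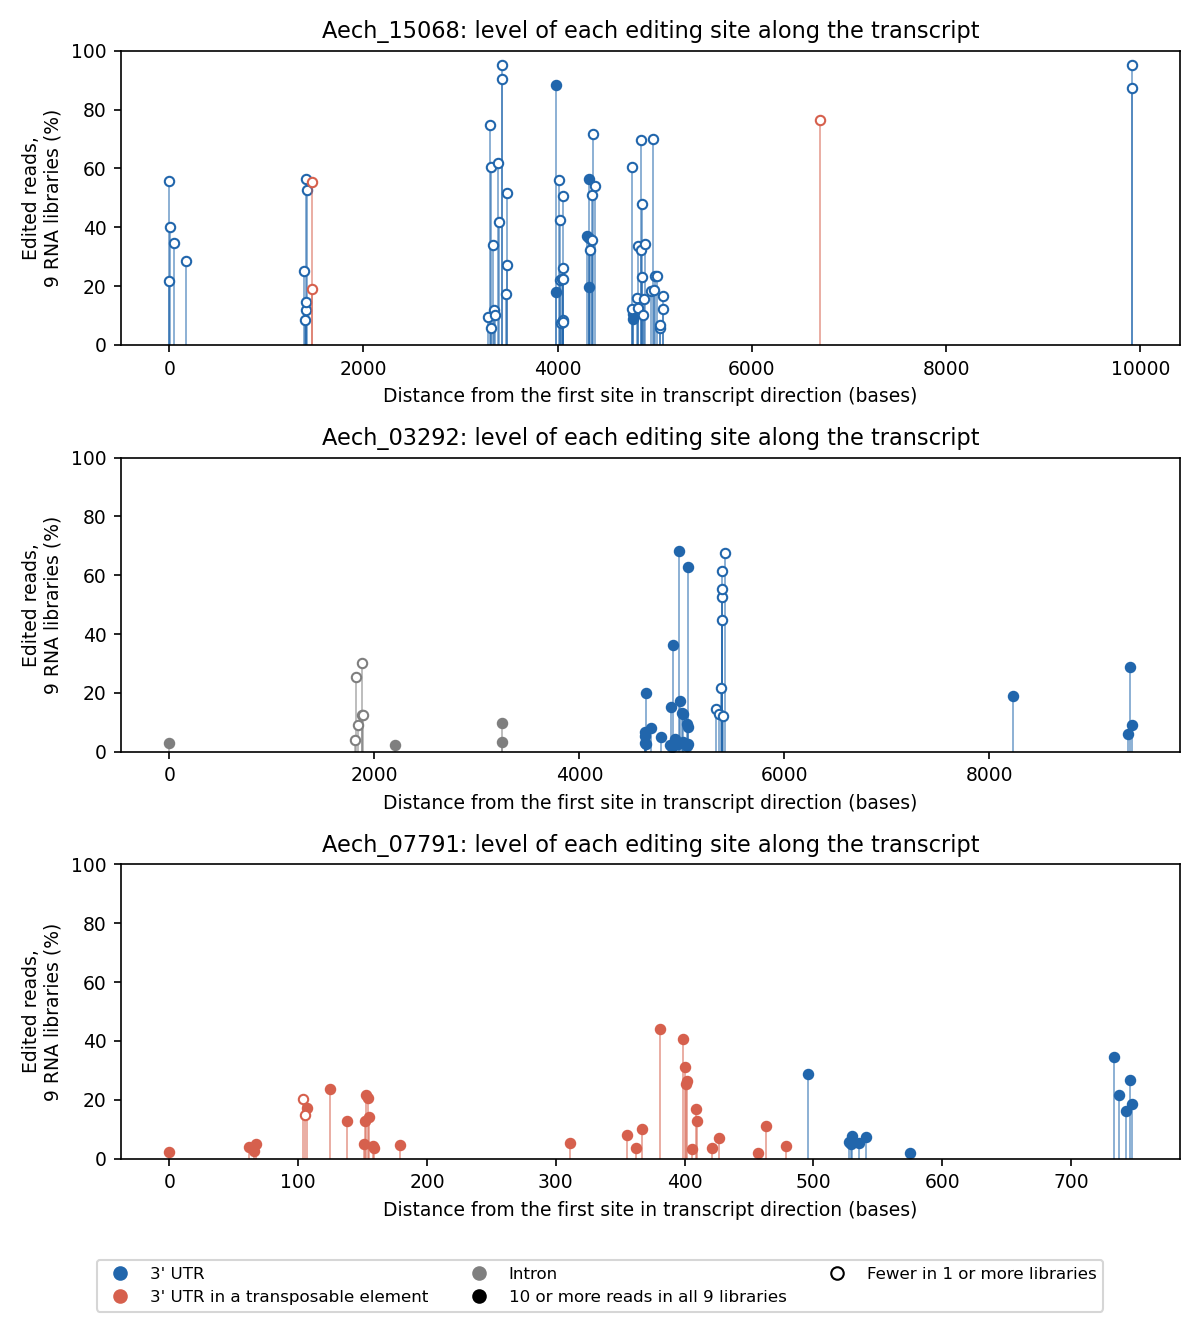
Editing level of every site of the 3 genes over the 9 RNA libraries together (vertical axis, percent of reads) against the distance in bases from the gene's first site in transcript direction (horizontal axis). Filled points have at least 10 reads in all 9 libraries and open points do not. Colour gives the annotated element. The sites of Aech_15068 and Aech_03292 stand in short clusters spread over 9912 and 9388 bases, and those of Aech_07791 fill 748 bases.

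Directly adjacent adenosines were often both edited, and to different degrees. The 166 sites contained 22 runs of neighbouring positions, of which 15 were pairs and 7 were longer, with 10 runs in Aech_15068, 4 in Aech_03292 and 8 in Aech_07791. In Aech_03292 241745 was edited in 13 of 464 reads (2.80%) and the next base of the transcript, 241744, in 317 of 505 (62.8%), the largest ratio among the 15 pairs. In every one of the 9 libraries 241744 was the higher of the pair, with 42.1% to 94.4% against 0% to 5.63%. In Aech_15068 the base at 41105 was edited at 18.1% and 41106 after it at 88.2%, the largest step in percentage points among the pairs, and 41176 at 8.39% was followed by 41177 at 50.7%. Other pairs were alike, such as 40547 and 40548 at 95.2% and 90.5%, with 59 of 62 and 57 of 63 reads edited. In Aech_03292 4 adjacent sites from 241411 to 241408 were at 61.3%, 52.5%, 44.6% and 55.2%. The longest run lay in Aech_07791, 5 sites from 394025 to 394021 at 5.01%, 12.8%, 21.8%, 20.5% and 14.1%. Of the 15 pairs, the first base in transcript direction was the higher in 6 and the second in the other 9. Depth was close but not equal within the pairs named here, with 464 and 505 reads at 241745 and 241744 and 62 and 63 at 40547 and 40548. Its part in the contrasts was not tested. The contrasts named here were picked after their levels were seen.

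**Figure D2:**
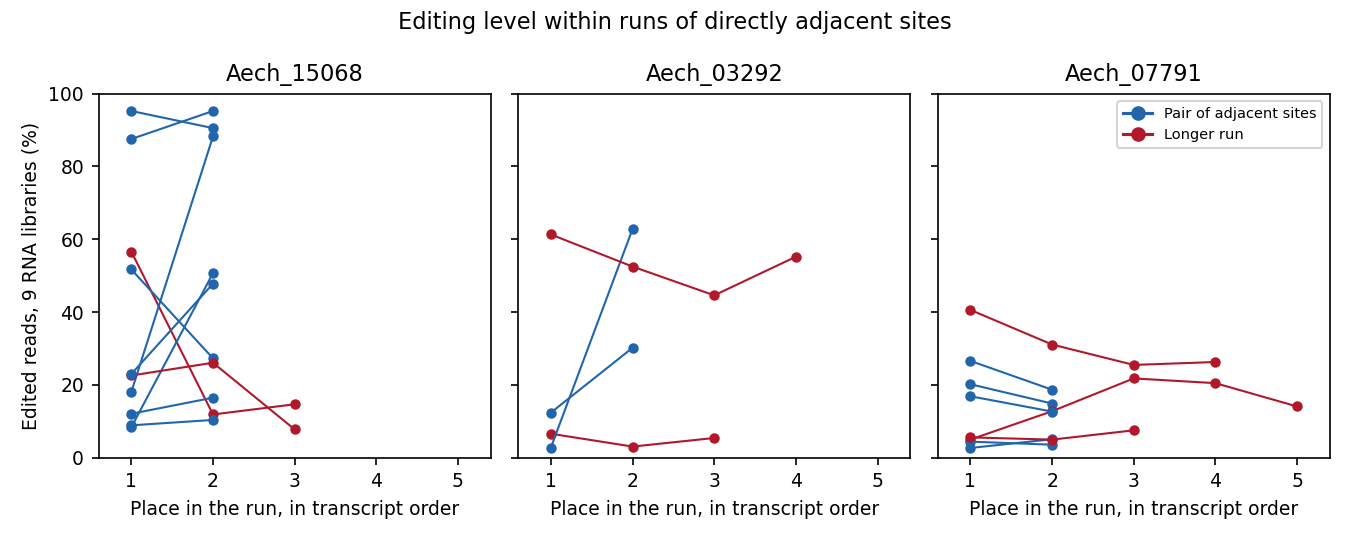
Levels within runs of directly adjacent sites, in percent of reads over the 9 RNA libraries (vertical axis), by place in the run in transcript order (horizontal axis). Each line is 1 run, blue for pairs and red for longer runs. Levels of neighbouring bases ranged from nearly equal (95.2% and 90.5%) to far apart (18.1% and 88.2%).

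Sites with high levels in one caste tended to have high levels in the others. Across the tested sites of a gene, the correlation of mean levels between gynes and small workers was 0.974 over 8 sites of Aech_15068, 0.962 over 31 sites of Aech_03292 and 0.899 over 44 sites of Aech_07791. Between gynes and large workers it was 0.986, 0.934 and 0.836, and between large and small workers 0.985, 0.972 and 0.904. Sites of 1 gene share reads and libraries, so these values describe the profiles and carry no test.

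Whether the castes differed in editing of these genes was asked first of the level averaged over the sites of a gene that could be tested, which are those where each of the 9 RNA libraries had 10 or more reads. There were 8 such sites in Aech_15068, 31 in Aech_03292 and 44 in Aech_07791. Aech_07791 and Aech_15068 were highest in small workers of every colony, while in Aech_03292 the castes overlapped. By limma on the arcsine-square-root scale, adjusted over 700 genes, 0 of the 3 genes passed 0.05 among the castes or between gynes and small workers. Over all 700 genes, 1.14% passed among the castes and 2.29% between gynes and small workers, and 70.9% had a higher level in small workers than in gynes (median difference 1.83 percentage points).

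In Aech_07791 the mean level was 11.5%, 8.32% and 8.79% in gynes of colonies A, B and C, 12.1%, 10.9% and 12.3% in large workers and 16.9%, 15.3% and 16.5% in small workers. All small worker libraries lay above all others, and the gyne and large worker libraries overlapped. The caste means were 9.55% ± 1.73, 11.7% ± 0.758 and 16.2% ± 0.800 (SD, n = 3). Small workers stood 5.36, 7.02 and 7.68 percentage points above gynes within colonies A, B and C. The difference of 6.69 points had an adjusted p of 0.110 by limma and of 0.170 with the replicate block, that is with colony as a term. An exact permutation test of the 3 castes over the 9 libraries of this gene alone gave p = 0.00714 (smallest possible 0.00357), and within colonies p = 0.0278, the smallest possible. The exact two-sided p between gynes and small workers was 0.1, the smallest that 3 against 3 libraries allow. The limma call between gynes and small workers depended on which genes and libraries were tested. When genes needed 3 or more tested sites the adjusted p was 0.00888, but there 93 of 230 genes passed. With sites of at least 20 reads it was 0.0377 (25 of 495 genes passed). Without gynes of colony A it was 0.0401 (29 of 700 passed) and without large workers of colony B 0.0466 (41 of 700 passed). Relative to each library's mean over all genes, which differs between castes, the difference shrank to 3.94 points with an adjusted p of 0.486. Small workers were higher at 39 of the 44 sites, with a median difference of 5.22 points. Over all 5720 tested sites of the table, 74.6% were higher in small workers, and the median difference was 2.68 points. In Aech_07791 the authors marked 42 to 43 sites as called in small worker libraries and 24 to 35 in gyne libraries. Some sites may therefore be in the table because they were high in small workers. Site 394110, for one, was marked in 2 libraries, and 0 of its 109 gyne reads were edited. The part of such sites in these counts and means was not tested. At the 12 tested sites outside the transposable element gynes averaged 10.4% ± 2.25, large workers 11.9% ± 0.763 and small workers 18.7% ± 0.653, and at the 32 inside it the averages were 9.23% ± 1.79, 11.7% ± 0.893 and 15.3% ± 1.10 (SD, n = 3).

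In Aech_15068 the mean level over the 8 tested sites was 31.8%, 25.8% and 28.8% in gynes of colonies A, B and C, 33.9%, 31.1% and 30.4% in large workers and 43.5%, 37.1% and 34.0% in small workers. The small worker libraries lay above the 6 others, but small workers of colony C (33.95%) and large workers of colony A (33.94%) were nearly equal. Those 2 libraries differed by far less than the spread of either caste. The caste means were 28.8% ± 2.97, 31.8% ± 1.87 and 38.2% ± 4.84 (SD, n = 3). The difference of 9.35 points between small workers and gynes had a limma adjusted p of 0.173. Over the 230 genes that had 3 or more tested sites the adjusted p was 0.0267, but there 93 genes passed. The exact permutation test of the 3 castes gave p = 0.0179, and within colonies 0.0278. All 8 tested sites were higher in small workers, by 1.67 to 20.3 points. Of the 74 sites 35 reached 5 reads in all libraries, and over those the difference was 8.28 points (adjusted p = 0.251). Relative to each library's mean over all genes it was 6.61 points (adjusted p = 0.603).

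In Aech_03292 the mean level over the 31 tested sites was 10.9%, 13.3% and 12.8% in gynes of colonies A, B and C, 13.2%, 11.3% and 13.8% in large workers and 12.3%, 13.0% and 13.1% in small workers. The libraries of all castes overlapped. The caste means were 12.3% ± 1.25, 12.8% ± 1.30 and 12.8% ± 0.425 (SD, n = 3), with an adjusted p of 0.981 among the castes by limma and an exact permutation p of 0.85. Small workers were the higher caste at 17 of the 31 sites and gynes at 14, and the median difference was 0.227 points. Taken relative to each library's mean over all genes, which was itself 2.74 points higher in small workers, the difference between small workers and gynes in Aech_03292 changed sign to -2.26 points (adjusted p = 0.585), and without gynes of colony A it was -0.219 points.

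**Figure D3:**
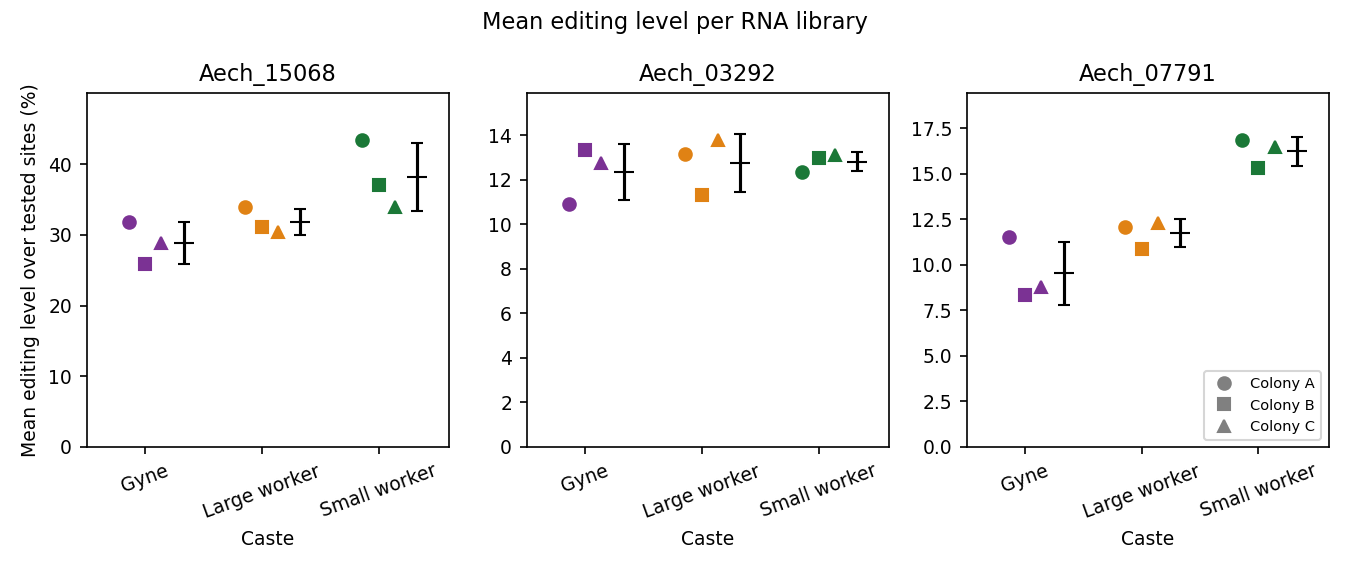
Mean editing level over the tested sites of each gene (vertical axis, percent, 8, 31 and 44 sites from left to right) in each RNA library, by caste (horizontal axis) and colony (marker). The bars at the right of each caste give the mean and SD of 3 libraries. Small worker libraries lie above the 6 others in Aech_07791, and the castes overlap in Aech_03292. In Aech_15068 they also lie above, but small workers of colony C (33.95%) nearly equal large workers of colony A (33.94%).

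Site by site, 83 of the 166 sites could be tested, each with a quasi-binomial logistic model of edited and unedited reads and p-values adjusted over all 5720 tested sites of the table. Among the 3 castes 5 of the 83 passed an adjusted p of 0.05, where 6.36% of all tested sites did, and between gynes and small workers 6 of 83 passed, where 8.23% did. These shares are near the background. Gynes against large workers and large against small workers gave 0 of 83 each (7 and 13 at an unadjusted p under 0.05), where 0.472% and 0.874% of all sites passed, and limma on the arcsine-square-root scale gave 0 in both as well. The levels of gynes and small workers did not overlap, with small workers higher, at 20 of 83 sites (24.1%), against 22% of all tested sites. By gene that was 15 of 44 sites in Aech_07791, 3 of 31 in Aech_03292 and 2 of 8 in Aech_15068. Sites that entered the table through high levels in small workers may be among them. All called sites lay in Aech_07791. With the replicate block 0 of the 83 sites passed in either comparison, and so it was with limma on the arcsine-square-root scale. Both also left 0 of the 5720 sites called. Relative to the overall level of each library 0 passed among the castes, where 72 of 5720 did. Between gynes and small workers 1 passed, which was none of the 6, where 89 of 5720 did. Without any 1 of the 9 libraries 0 of the 83 passed among the castes, where 0 to 61 of 5720 did. Between gynes and small workers, 2 sites passed without gynes of colony A and 1 without those of B or C. Without large workers of colony A 3 passed, and without those of B or C 4 each. Without small workers of colony A or B 1 passed, and 0 without those of C. In that comparison 52 to 219 of all 5720 sites passed without 1 library, against 471 with all 9.

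The 5 sites called among the castes were the 5 sites of the last cluster of Aech_07791, within 15 bases of each other, and they were called between gynes and small workers too. They are read largely from the same fragments, so they count as 1 observation and not as 5. Over the cluster, edited reads made up 16.9%, 15.9% and 11.7% of reads in gynes of colonies A, B and C, 20.3%, 16.4% and 19.3% in large workers and 29.4%, 29.5% and 32.6% in small workers. All small worker libraries stood above all others. The caste means were 14.8% ± 2.76, 18.7% ± 2.03 and 30.5% ± 1.81 (SD, n = 3).

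At 393443, the most highly edited site of that cluster, gynes had 24.4%, 29.6% and 21.3% in colonies A, B and C, large workers 32.1%, 26.8% and 25.4%, and small workers 44.2%, 39.5% and 44.8%, with 63 to 281 reads per library. The difference between gynes and small workers had an adjusted p of 0.00773. At 393439 the caste means were 13.8% ± 3.24, 15.8% ± 5.78 and 28.4% ± 1.88 (adjusted p = 0.00989). At 393433 they were 6.69% ± 1.79, 15.5% ± 2.62 and 20.2% ± 4.05 (adjusted p = 0.00197), and here small workers of colony A, at 15.7%, lay within the range of large workers. At 393430 gynes had 20.7%, 21% and 8.2%, large workers 20.8%, 19.1% and 20.9%, and small workers 31%, 32.5% and 40.3% (adjusted p = 0.00795). At 393429 the caste means were 11.0% ± 4.24, 13.7% ± 2.54 and 25.6% ± 1.74 (adjusted p = 0.0121). At each of the 5 sites every small worker library was above every gyne library, and n = 3 libraries per caste stood behind each SD. These adjusted p-values come from the quasi-binomial model with 1 dispersion of 1.88 shared by all sites, so the SD of a single site does not enter them.

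**Figure D4:**
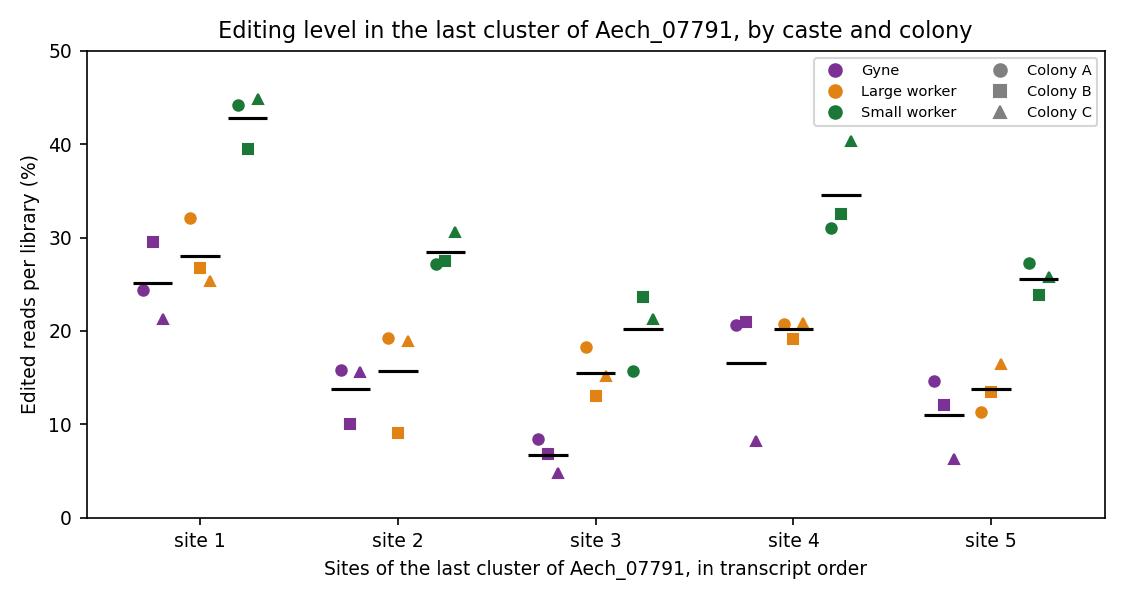
Edited reads in percent (vertical axis) at the 5 sites of the last cluster of Aech_07791, in transcript order (horizontal axis), which are 393443, 393439, 393433, 393430 and 393429. Each point is 1 RNA library, with colour for caste and marker for colony, and the black line is the mean of 3 libraries. At each site every small worker library lies above every gyne library.

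The sixth site called between gynes and small workers was 393766, in the second cluster and inside the transposable element. It was edited at 3.33%, 4.92% and 7.14% in gynes of colonies A, B and C, at 7.69%, 14.6% and 20% in large workers and at 21.8%, 9.41% and 21.3% in small workers (adjusted p = 0.0313). Gynes lay below both worker castes, which overlapped. At 394051 in the first cluster the order was another one, gynes at 30.2% ± 9.77, large workers at 10.6% ± 3.17 and small workers at 26.9% ± 6.27 (SD, n = 3), but no comparison passed (adjusted p = 0.187 among the castes in the quasi-binomial model). It was picked after its values were seen.

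In the other 2 genes the quasi-binomial model called no site. Relative to the overall level of each library it called 243555 of Aech_03292, at 10.9% ± 3.35 in gynes against 9.02% ± 1.49 in small workers (SD, n = 3, adjusted p = 0.0353). The castes overlapped there, with gynes at 12.8%, 12.9% and 7.02% in colonies A, B and C and small workers at 7.34%, 10.2% and 9.54%. With that scaling 89 of all 5720 sites passed between gynes and small workers. Without that scaling the smallest adjusted p between gynes and small workers was 0.118 in Aech_03292, at site 238573, which stands alone between clusters and had 123 to 1152 reads per library. Gynes had 14.9%, 14.7% and 13.8% there in colonies A, B and C, large workers 20.8%, 20.4% and 19.0%, and small workers 18.3%, 19.8% and 20.8%. All gyne libraries lay below all worker libraries. The site's own dispersion was 0.302, below the shared value of 1.88 that the test used. At 30 of the 83 tested sites, among them 12 of 44 in Aech_07791, the own dispersion was above the shared value. In Aech_15068 the site with the most reads, 41428, was at 26.9%, 19.4% and 28.6% in gynes, 40.4%, 42.9% and 24.1% in large workers and 40%, 35.2% and 60.5% in small workers (adjusted p = 0.190). Small workers lay above gynes, and large workers overlapped both. At 41441 of the same cluster gynes had 55.6%, 44.4% and 42.9%, large workers 63.5%, 51.5% and 36%, and small workers 85.7%, 51.1% and 50%. The highest caste mean there, 62.3% ± 20.3 in small workers, rests on the library of colony A.

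The clusters of Aech_15068 that lie close together can be set side by side by their share of edited reads. At 41105 to 41181 gynes had 29.6% ± 4.21, large workers 31.1% ± 6.90 and small workers 38.6% ± 5.26. At 41428 to 41504 the same means were 32.5% ± 4.70, 37.8% ± 1.52 and 46.3% ± 5.74, and every small worker library lay above the other 6. At 41885 to 42206 they were 18.9% ± 6.54, 21.1% ± 4.90 and 26.8% ± 1.62 (SD, n = 3), with gynes of colony C at 26.0% inside the range of small workers, 25.0% to 28.1%. In Aech_03292 the 9-site cluster at 241473 to 241381 was at 38.3% ± 11.5, 39.7% ± 7.52 and 27.2% ± 4.98 in the 3 castes in the same order. It held 0 tested sites and 1004 reads over all libraries. At 241410 of that cluster gynes had 3, 2 and 1 reads in colonies A, B and C, so its gyne level is coarse. The 6-site cluster at 242158 to 242098, with 6 tested sites and 3260 reads, was at 3.59% ± 1.58, 6.90% ± 3.53 and 8.54% ± 1.57 (SD, n = 3). The clusters were drawn from the site positions of these data, and their caste levels were not tested.

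The authors marked the sites that they called in each library. In Aech_07791 the authors marked 35, 24 and 29 sites in gynes of colonies A, B and C, 35, 29 and 31 in large workers and 43, 43 and 42 in small workers. In Aech_15068 gyne libraries had 48.0 ± 3.61 marked sites, large worker libraries 50.3 ± 9.61 and small worker libraries 62.7 ± 4.04, and in Aech_03292 26.0 ± 2.65, 33.7 ± 7.64 and 38.3 ± 2.52 (SD, n = 3). Over the whole table the authors marked 51.5% to 55.9% of sites in gyne libraries, 47.3% to 69.9% in large worker libraries and 72.0% to 80.2% in small worker libraries. In Aech_07791 the shares were 52.2% to 76.1%, 63.0% to 76.1% and 91.3% to 93.5%, so the table as a whole had the same order of castes. No test was made of these numbers. Depth moved with them, since the median site of the table had 10 to 13 reads in gyne libraries, 8 to 15 in large worker libraries and 17 to 22 in small worker libraries, and its part in the numbers of called sites was not tested. In all 9 libraries 21 of 74 sites of Aech_15068, 11 of 46 of Aech_03292 and 17 of 46 of Aech_07791 were marked. The share of all sites of the table marked in all 9 libraries was not counted, so these numbers are a description only.

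Reads over the sites of Aech_03292 were scarcer in gynes than in both worker castes, a measure separate from the editing level. Per 1000000 RNA reads over all sites of the table, they numbered 4320, 2962 and 2270 in gynes of colonies A, B and C, 7553, 5002 and 6044 in large workers and 5603, 6945 and 5944 in small workers. All gyne libraries lay below all 6 worker libraries. By limma on the log2 of this value, adjusted over 856 genes with at least 10 reads in every library, small workers were higher by 0.997 on the log2 scale (adjusted p = 0.0372, and 0.0312 with the replicate block), where 14.4% of genes passed in either direction. Large workers were higher by 0.99 (adjusted p = 0.0612), where 4.91% passed. Without 1 library the difference of small workers from gynes lay between 0.78 and 1.24, and it no longer passed without gynes of colony B or C or small workers of colony A, B or C (adjusted p from 0.0868 to 0.113). The 3 deepest sites, 243557, 243555 and 238573, held 42.0% of the gene's reads, and over the other 43 sites gynes had 1802 ± 506, large workers 3344 ± 1019 and small workers 3768 ± 354 on the same scale (SD, n = 3). There 1 large worker library, at 2250, lay within the gyne range of 1406 to 2371. A read that covers several sites is counted at each of them, and in pooled heads fewer cells of a type and less RNA per cell cannot be told apart. In Aech_15068 and Aech_07791 the log2 difference between small workers and gynes was 0.24 (adjusted p = 0.613) and 0.21 (adjusted p = 0.576).

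**Figure D5:**
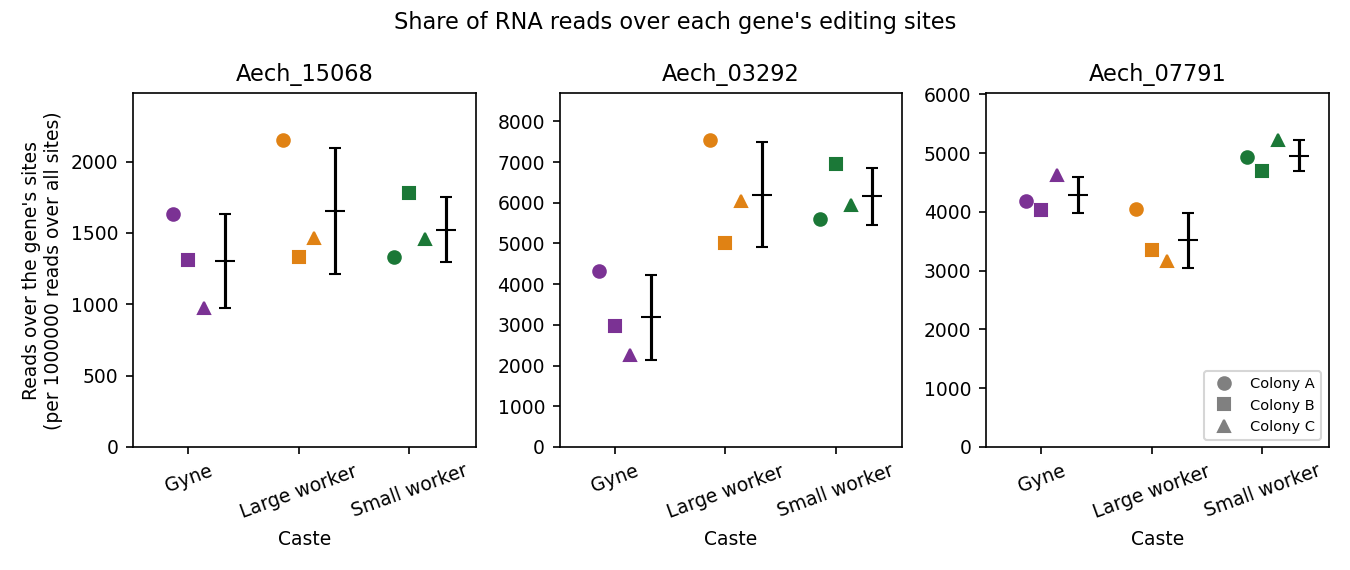
RNA reads over the sites of each gene per 1000000 RNA reads over all sites (vertical axis) in each library, by caste (horizontal axis) and colony (marker). The bars give the mean and SD of 3 libraries. In Aech_03292 the 3 gyne libraries, at 2270 to 4320, lie below the 6 worker libraries, at 5002 to 7553.

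The pattern of mean levels over the 9 libraries was set against those of 150 genes with at least 5 tested sites. Aech_07791 was most like SdhA (Aech_09932), a subunit of succinate dehydrogenase of the respiratory chain, with a Pearson correlation of 0.967, Hsp83 (Aech_04253), a chaperone, with 0.965, and CG5515 (Aech_14715) with 0.961. In SdhA gynes averaged 5.31%, large workers 7.69% and small workers 13.5%, and in Hsp83 the averages were 8.10%, 10.1% and 13.8%. Aech_15068 was most like the DnaJ-type cochaperone gene Droj2 (Aech_06037) with 0.901, SdhA with 0.886 and Aech_07791 with 0.871. Aech_03292 was most like nrv3 (Aech_05195), a subunit of the sodium pump, with 0.814, the prohormone gene Aech_06110 with 0.759 and CG13248 (Aech_10700), an amino acid transporter, with 0.688. Between Aech_03292 and the other 2 genes the correlation was -0.115 for Aech_15068 and 0.0710 for Aech_07791. These are the highest of many values over the same 9 libraries, whose overall level differs by caste, and carry no test.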

How the data were processed

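Per the file headers, the deposited table gives for each site the RNA and DNA reads with each base in every library, packed in 1 cell, with the authors' mark where they called the site, and positions on assembly Aech_2.0. BWA 0.5.9-r16 stands in the submitters' processing notes. How sites were detected is not given in the sources used here. Some may be in the table only because they were high in small workers, whose libraries were the deepest. Per the labels' protocols, RNA was polyadenylated, libraries were strand-specific and reads were paired, of 90 bases. Every site had at least 10 DNA reads and 0 edited DNA reads in each library.

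The editing level was edited reads over all reads. A site was tested where every one of the 9 RNA libraries had 10 or more reads (5720 sites). Per site, a quasi-binomial logistic model was fitted in R 4.3.3, with the dispersion moderated by squeezeVar of limma 3.58.1 (which gave 1 shared value of 1.88) and kept at 1 or above, and F tests were adjusted by Benjamini-Hochberg at 0.05. Per gene, the mean level of the tested sites was put on the arcsine-square-root scale and tested with limma (700 genes), and exact permutation tests on the library means. Log2 reads per 1000000 over a gene's sites, with a pseudocount of 0.5 reads, were tested with limma; this test was added after the values were seen. The scripts were tested on simulated data. Tables and figures used Python 3.11.15, pandas 2.3.3 and matplotlib 3.10.9.

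The letters A, B and C stand for colonies and therefore pair libraries across castes. After subtracting caste means, libraries of 1 colony correlated with r from -0.00696 to 0.0512 (median 0.0257), and of different colonies with r from -0.0394 to 0.0319. The genes, lists and tests were chosen with earlier results of these data known. In each gene the text names the 3 tested sites with the highest level, the site with the most reads, the first and last site and the called sites; other sites were picked after their values were seen. Clusters were cut at gaps over 90 bases. Alternatives were other coverage minimums, models, scalings and gene sets, the replicate block and leaving out each library. Reads carry no molecular identifiers, so depth bounds counting error only. The p-values of limma and of the permutation tests measure the spread between pools. Those of the quasi-binomial model scale counting error by the dispersion of 1.88 shared by all tested sites. A site's own spread between pools enters them only through that shared value. No genome sequence was used here.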

Additional observations from a re-analysis of the deposited data

How the results depend on the processing

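Coverage minimums of 5 or 20 reads, a robust dispersion, no floor on it and A-to-G sites alone left 5 member sites called among the castes and 6 or 7 between gynes and small workers. At 5 reads these were 5 and 7 of 117 member sites, where 390 and 475 of all 8326 sites passed. At 20 reads they were 5 and 7 of 47, where 324 and 418 of 3370 passed. In the other settings they were out of 83, where 364 to 380 and 471 to 508 of all sites passed, out of 5720, or 5100 for A-to-G sites alone. The seventh site was 394072 at 5 reads and 393776 in the other settings with 7. With limma on the arcsine-square-root scale both numbers were 0, with the replicate block both were 0, and relative to the overall level of each library they were 0 and 1. The 1 site was 243555 of Aech_03292. Over the whole table limma and the replicate block also left 0 sites called (785 and 751 at an unadjusted p under 0.05 among the castes, 922 and 1003 between gynes and small workers). Leaving out 1 library gave 0 member sites among the castes each time and 0 to 4 between gynes and small workers. Over all 5720 sites it gave 0 to 61 and 52 to 219. Gynes against large workers and large against small workers stayed at 0 under every setting that was run.

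The difference of mean level between small workers and gynes in Aech_07791 was 8.08 points with sites of at least 20 reads, where 25 of 495 genes passed. Among genes with at least 3 tested sites it was 6.69, where 93 of 230 genes passed. Both were past the threshold, and without 1 library the difference was 6.07 to 7.68. In Aech_15068 it was 9.35 among genes with at least 3 tested sites, past the threshold, and 6.70 to 11.5 without 1 library. Aech_15068 had no site with 20 reads in all libraries, so that setting gave no value. Relative to each library's mean over genes it was 3.94 in Aech_07791 (adjusted p = 0.486), 6.61 in Aech_15068 (adjusted p = 0.603) and -2.26 in Aech_03292. In Aech_03292 it was -0.219 to 0.973 without 1 library. The replicate block changed no call on these means. The log2 difference in reads lay between 0.78 and 1.24 without 1 library for Aech_03292, and median-ratio scaling gave 0.96 (adjusted p = 0.0448). The cause of these shifts was not tested. Depth limits Aech_15068 most, where 66 of 74 sites were not tested.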
